A study of Homo sapiens with 9 samples.

Results

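The subject is how far 3 independent knockout clones of 1 endothelial cell line differ from each other. CI-huVEC are immortalized endothelial cells from the human umbilical vein, here at passage 31. Clones 21, 22 and 23 carry CRISPR/Cas9 edits in exon 3 of CCM3, the gene listed as PDCD10, and the labels give all 3 as CCM3 -/-. Each clone was sequenced once without fibronectin and once after 48 h on a coating of it (5 µg/cm2). These 6 knockout libraries of 9 in the series were grouped by the clone number in their titles (2 libraries a clone). The other 3 libraries are unedited wild-type CI-huVEC without fibronectin. The labels do not say whether the libraries of a clone came from separate cultures, and each knockout line is 1 clone, so p-values measure the spread between these libraries only.

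CCM3 is a small adaptor protein that binds GCKIII kinases and links them to the STRIPAK phosphatase complex, and its loss in brain endothelium causes cerebral cavernous malformations. Loss of CCM proteins in endothelial cells is known to release the MEKK3 kinase and to raise the transcription factors KLF2 and KLF4. A line grown from 1 edited cell also carries whatever expression state that cell had, so clones of the same genotype commonly differ in genes that are on in some cells of a culture and off in others.

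Total counts were 24406001 to 33971610 per library, and 28514 gene symbols were listed. A gene was tested where its counts passed a filter of about 10 reads in the libraries of a clone, which left 13454 genes. Levels are in CPM, a gene's count relative to its library's total after TMM scaling, a correction for library composition. The edited gene itself did not differ between clones by this test. PDCD10 had 37.8, 35.2 and 36.1 CPM on fibronectin and 42.3, 35.6 and 37.6 CPM untreated in clones 21, 22 and 23, against 46.2, 48.4 and 53.03 CPM in the wild-type libraries (adjusted p of the clone test 0.576). A frame-shifting edit need not remove the transcript, so these counts do not show the edit. The 10 defining endothelial markers summed to 5938 to 6962 CPM in the 6 knockout libraries and to 2410 to 2667 CPM in wild-type. VWF was the largest part of the knockout sums, at 2570 to 3470 CPM against 275 to 372 CPM in wild-type. PECAM1, KDR, TEK, TIE1, CLDN5 and ESAM were also above wild-type in every knockout library. CDH5, at 585 to 716 CPM, overlapped wild-type (669 to 748 CPM), and ERG and EMCN lay below it. None of the 10 was under 1 CPM in any knockout library.

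Most tested genes were not called as different among the clones, and a minority were. A missed call does not show that the clones are alike in a gene. Of 13454 tested genes, 471 differed among the clones (3.5%) at an adjusted p under 0.05 by edgeR's quasi-likelihood F test with fibronectin as covariate and Benjamini-Hochberg adjustment. Of these, 185 differed by at least 2-fold between a pair of clones, 59 by at least 4-fold and 25 by at least 8-fold. The median largest difference between clones was 0.167 on the log2 scale over all tested genes and 0.831 over the called ones. The called genes held 2.28% of all counts of the 6 libraries, and 308 of them averaged at least 5 CPM. Each clone had only 1 library per condition.

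With all 6 libraries, clone 21 stood apart in the most genes. Against the mean of clones 22 and 23 it had 407 called genes (3.03%), 187 higher and 220 lower. Clone 22 had 170 against the other clones (1.26%), with 111 higher and 59 lower, and clone 23 had 263 (1.95%), with 153 higher and 110 lower. Pair by pair, 305 genes differed between clones 21 and 22 (2.27%), 359 between clones 21 and 23 (2.67%) and 144 between clones 22 and 23 (1.07%). In some called genes both pairwise differences of a clone passed and the other pair did not. By this count clone 21 was the one apart in 127 genes, clone 22 in 43 and clone 23 in 56. Another 18 genes differed in all 3 pairs. The order of the clones turned when a library of clone 21 was left out. Without the untreated one, clone 22 had 2129 called genes and clone 21 had 1870, and without the fibronectin one clone 23 had the most, at 1432.

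**Figure D1:**
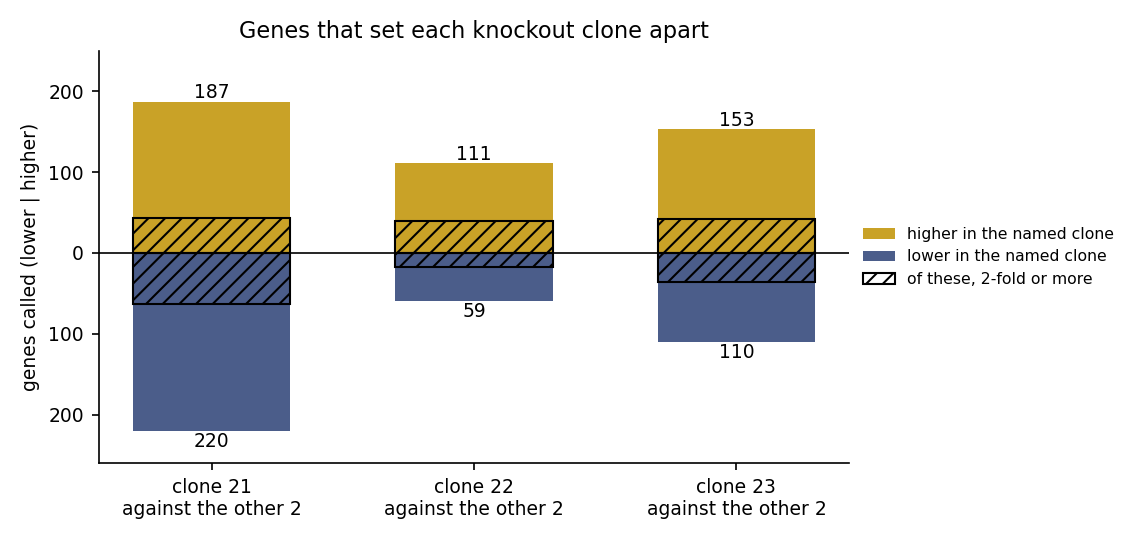
Number of genes called higher (up) and lower (down) in each clone against the mean of the other 2 clones, by the edgeR quasi-likelihood test at an adjusted p under 0.05. Hatching marks the genes with at least a 2-fold difference. Clone 21 has 187 higher and 220 lower genes, more than clone 22 (111 and 59) or clone 23 (153 and 110).

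The count rests on which libraries are in the fit. With all 6 libraries the fit has 2 residual degrees of freedom, and with 1 left out it has 1. Without the fibronectin or the untreated library of clone 21 the clone test called 1580 and 2420 genes. Without those of clone 22 it called 404 and 532, and without those of clone 23 it called 64 and 82. Of the 471 genes, 62 kept their call whichever library was left out, and 54 of those differed by at least 2-fold. Of the 103 called genes named by the rule, 36 kept it throughout and 58 lost it without either library of clone 23. The genes described first for each clone below are among those 36 unless said otherwise.

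The clone signal repeated between the fibronectin and the untreated library of a clone. Deviations of a library from the mean of its group correlated across 13454 genes at r = 0.350 in clone 21, 0.411 in clone 22 and 0.496 in clone 23. Between different clones r ran from -0.416 to -0.0108, a range that deviations from a common mean push below 0 by construction. These correlations are across genes, which are not independent replicates. Clone membership took 48.6% of the summed squares of log2(CPM + 1) over the 6 libraries, fibronectin 30.8% and the rest 20.7%. These terms had 2, 1 and 2 degrees of freedom, or 40%, 20% and 40%. The median shares over genes were 36.5%, 27.7% and 22.9%. The median for clone lay under its 40%, but a share of degrees of freedom describes an average and is no yardstick for a median. In a principal component analysis of the 6 libraries, component 2, with 28.5% of the variance, had clone 21 at -14.6 on fibronectin and -12.7 untreated and the other 4 libraries between 5.61 and 8.52. Component 1, with 41.8%, ran mostly with fibronectin and reached its extremes in clone 21, at 17.2 on fibronectin and -17.2 untreated.

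**Figure D2:**
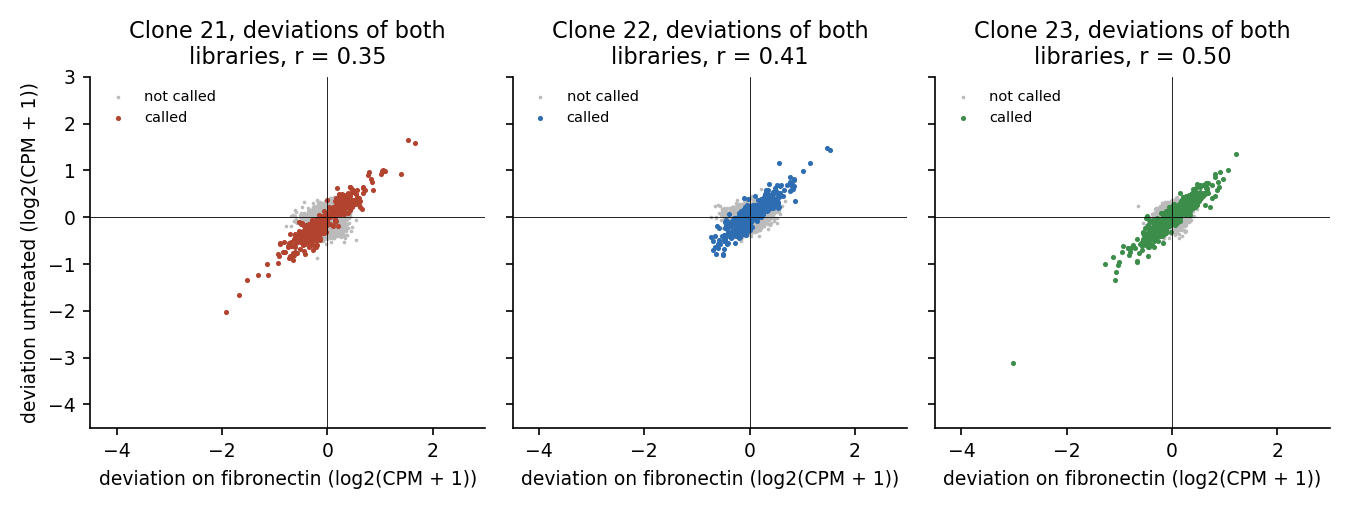
Deviation of each of 13454 genes from the mean of the 3 clones on fibronectin (x axis) and without it (y axis), in log2(CPM + 1), 1 panel per clone. Coloured points are the 471 called genes, and the grey points are the rest. The clone test picks genes in which both libraries of a clone agree, so the called points lie along the diagonal by that choice. The lone point far to the lower left in clone 23 is SULF1.

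The genes lowest in clone 21 were nearly off there. In bulk RNA, fewer expressing cells in a clone and less RNA per cell cannot be told apart. Where a clone is given a pair of values, the fibronectin library comes before the untreated one. ZFP57, a zinc finger protein that maintains DNA methylation at imprinted regions, had 3 counts on fibronectin and 1 count untreated in clone 21, or 0.108 and 0.0383 CPM. The same gene had 11.2 and 10.4 CPM in clone 22, 4.56 and 5.40 CPM in clone 23 and 2.72 CPM on average in wild-type. Its fitted difference of clone 21 from the other clones was -6.54 on the log2 scale (SE 0.32, adjusted p = 4.83e-11), a value that depends on the prior count at such low counts. FAM174B had 0.252 CPM on fibronectin and 0.306 CPM untreated in clone 21. In clones 22 and 23 it lay between 6.04 and 6.51 CPM, and wild-type averaged 18.0 CPM (log2 difference -4.46, SE 0.24, adjusted p = 2.02e-10). UCHL1, a ubiquitin hydrolase abundant in neurons, had 0.396 and 0.613 CPM in clone 21, 4.84 and 4.92 CPM in clone 22 and 6.84 and 6.24 CPM in clone 23, against 183 CPM in wild-type. All 3 clones were thus far below wild-type in UCHL1, and clone 21 was the lowest. In each of these 3 genes both clone 21 libraries lay below all 4 libraries of the other clones. The rule that named them required this, so it is no added support.

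The promoter windows of these 3 genes are shown because all 3 were nearly off in clone 21, with every CG dinucleotide, the site of DNA methylation, in capitals. They are RefSeq sequences of GRCh38.p14, from 250 bases before to 50 bases after the gene start, read in the direction of the gene. The counts come from hg19, so no position of the study's own is shown. DNA methylation was not measured in these libraries.
ZFP57: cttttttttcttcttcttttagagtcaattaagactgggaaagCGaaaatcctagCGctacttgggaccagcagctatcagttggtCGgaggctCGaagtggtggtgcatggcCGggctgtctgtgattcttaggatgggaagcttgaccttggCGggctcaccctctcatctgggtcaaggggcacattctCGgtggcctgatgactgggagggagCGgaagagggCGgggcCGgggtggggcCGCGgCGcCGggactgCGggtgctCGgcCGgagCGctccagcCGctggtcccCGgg
FAM174B: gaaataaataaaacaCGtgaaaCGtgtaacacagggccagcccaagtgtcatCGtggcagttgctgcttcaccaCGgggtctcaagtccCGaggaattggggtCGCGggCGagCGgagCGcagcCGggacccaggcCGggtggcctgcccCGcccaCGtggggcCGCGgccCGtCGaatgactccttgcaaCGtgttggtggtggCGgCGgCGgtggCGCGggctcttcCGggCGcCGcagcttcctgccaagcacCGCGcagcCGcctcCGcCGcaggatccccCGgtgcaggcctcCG
UCHL1: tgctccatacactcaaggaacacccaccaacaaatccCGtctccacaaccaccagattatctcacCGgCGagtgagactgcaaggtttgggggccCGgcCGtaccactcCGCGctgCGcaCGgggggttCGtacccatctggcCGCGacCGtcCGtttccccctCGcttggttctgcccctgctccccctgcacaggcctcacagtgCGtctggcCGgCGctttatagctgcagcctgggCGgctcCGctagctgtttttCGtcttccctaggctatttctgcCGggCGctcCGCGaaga
ZFP57 (chr6:29681103-29681402, minus strand) held 20 CG dinucleotides, a number that 41.2% of the 35116 promoter windows in the RefSeq table reached. FAM174B (chr15:92655726-92656025, minus strand) held 34, which 15.6% reached, and UCHL1 (chr4:41256678-41256977, plus strand) held 25, which 32% reached. A single promoter window was matched for 6618 of the 13454 tested genes. Their median was 27 CG dinucleotides, against 23 over 197 called genes and 21.5 over the 78 called genes with at least a 2-fold difference, given as a description only.

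Further genes were low in clone 21 without being off. GGT1, a cell-surface enzyme that cleaves glutathione, had 2.05 CPM on fibronectin and 1.23 CPM untreated in clone 21, against 6.45 to 9.56 CPM in clones 22 and 23 (log2 difference -2.27, SE 0.17). Wild-type, at 1.65 CPM, lay near clone 21. GGT1 has near-identical copies in the genome, so its reads may be shared with them. RASGRF2, an exchange factor for Ras, had 1.87 and 2.22 CPM in clone 21, 10.1 and 9.62 CPM in clone 22 and 7.04 and 6.95 CPM in clone 23, and at most 0.111 CPM in wild-type. KIF21A, a kinesin motor, SLC9A7, a sodium-proton exchanger of the Golgi, and UBXN2B, a cofactor of the p97 ATPase, were 2.74-fold, 2.69-fold and 3.00-fold lower in clone 21 than in the other clones. GPC1, a cell-surface heparan sulfate proteoglycan, had the same direction (-1.49, SE 0.19), but lost its clone call without the fibronectin library of clone 23 (adjusted p = 0.127) or the untreated one (0.0563).

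The genes highest in clone 21 included secreted and cell-surface proteins. FAP, a membrane protease known from activated fibroblasts, had 33.0 CPM on fibronectin and 44.7 CPM untreated in clone 21, 6.12 and 11.9 CPM in clone 22 and 4.03 and 4.97 CPM in clone 23, against 6.72 CPM in wild-type. Clone 21 was thus above wild-type, clone 23 did not pass the test against wild-type (adjusted p = 0.11), and the clones did not overlap (adjusted p of the clone test 4.37e-11). EFEMP1, the matrix protein fibulin-3 and the most abundant of the named genes with a 2-fold difference, had 5635 and 5819 CPM in clone 21, 2421 and 2623 CPM in clone 22 and 2373 and 2358 CPM in clone 23. Its difference was 1.24 on the log2 scale (SE 0.07, adjusted p = 1.49e-10). TFPI2, a serine protease inhibitor of the matrix, had 22.5 and 29.1 CPM in clone 21 and 6.30 to 10.2 CPM in the other clones, all far under the 561 CPM of wild-type. AK5, an adenylate kinase, had 32.3 and 27.1 CPM in clone 21, near the 30.1 CPM of wild-type, and 8.53 to 11.04 CPM in the other clones. NUDT11, a phosphatase of inositol pyrophosphates, had the same order, with 37.1 and 36.0 CPM in clone 21, 11.2 to 11.9 CPM in the other clones and 45.0 CPM in wild-type, though it has a close copy, NUDT10.

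Other genes named for clone 21 went in both directions. CD70, a ligand of the TNF family, had 6.94 and 4.06 CPM in clone 21, 1.20 and 1.38 CPM in clone 22 and 0.562 and 0.604 CPM in clone 23. Wild-type averaged 3.77 CPM. Clone 21 did not pass the test against wild-type (adjusted p = 0.233), and clones 22 and 23 were called below it. SERPINB2, an inhibitor of plasminogen activators, was 2.04-fold higher in clone 21, with 39.6 and 36.7 CPM. DPP4, a dipeptidase related to FAP, went the other way, with 53.9 and 50.1 CPM in clone 21, 106 and 106 CPM in clone 22 and 80.4 and 73.7 CPM in clone 23, all above the 6.79 CPM of wild-type. FAP and DPP4 are next to each other among the tested genes of their chromosome and differed in opposite directions in clone 21.

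**Figure D3:**
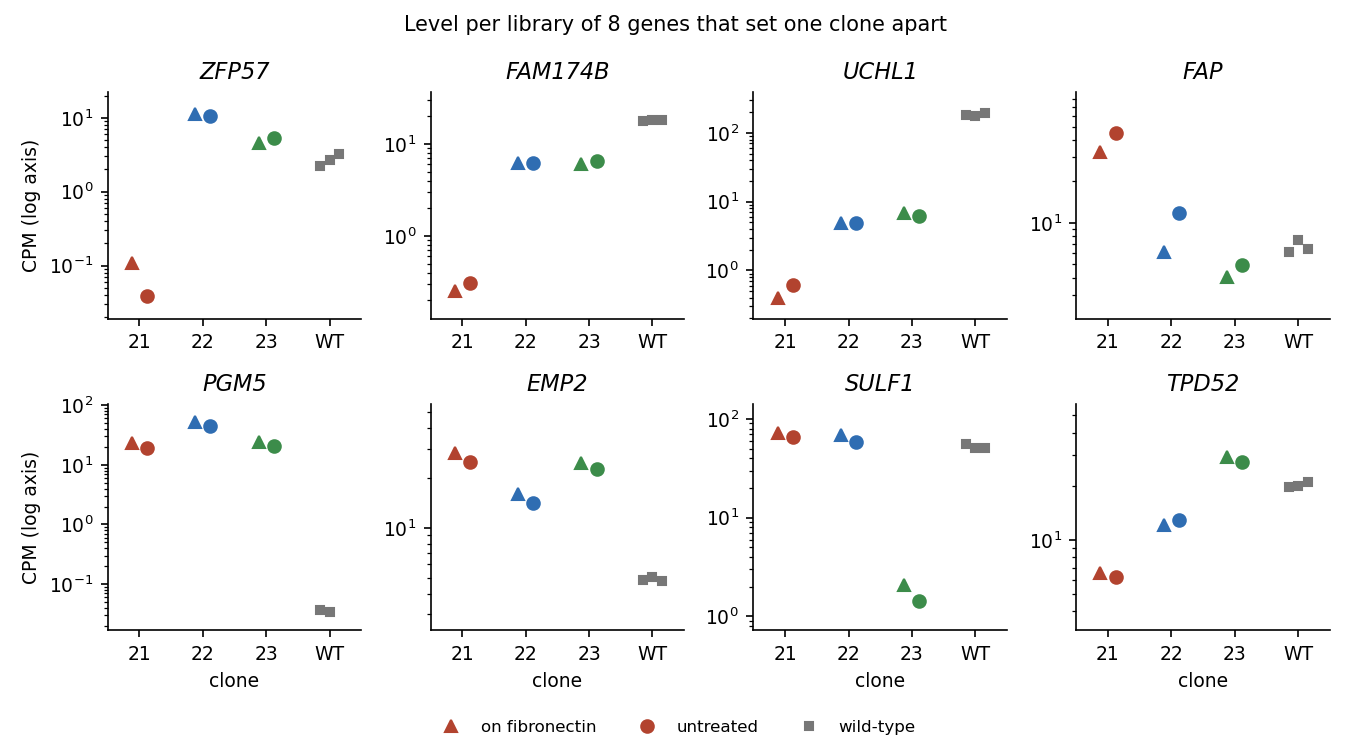
CPM per library, on a log axis, of 8 genes in clones 21, 22 and 23 (triangles on fibronectin, circles untreated) and in the 3 wild-type libraries (squares). Among the 3 clones, ZFP57, FAM174B and UCHL1 are lowest and FAP is highest in clone 21, PGM5 is highest and EMP2 lowest in clone 22, and SULF1 is lowest and TPD52 highest in clone 23. The third wild-type library had 0 CPM of PGM5 and falls off the log axis.

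Clone 22 was set apart by fewer genes. PGM5, a relative of phosphoglucomutase found at cell-matrix adhesions, had 53.2 CPM on fibronectin and 44.7 CPM untreated in clone 22 and 18.9 to 23.9 CPM in the other clones, and at most 0.0369 CPM in wild-type (log2 difference 1.15, SE 0.08, adjusted p = 2.7e-08). GFPT2, an enzyme of hexosamine synthesis, had 22.9 and 22.9 CPM in clone 22, 8.85 and 8.39 CPM in clone 21 and 5.98 and 6.71 CPM in clone 23, around a wild-type mean of 13.1 CPM. PNPLA4, a lipase of the patatin-like family, had 9.18 and 8.38 CPM in clone 22, 3.49 and 2.41 CPM in clone 21 and 1.10 and 1.34 CPM in clone 23, around a wild-type mean of 4.91 CPM. In both genes clone 22 lay above wild-type and clone 23 below it. RNF212, known from meiotic recombination, was 2.97-fold higher in clone 22 at 7.07 and 5.83 CPM, and LYPD6 was 2.003-fold higher at 15.1 and 14.0 CPM.

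Genes low in clone 22 included EMP2, a tetraspan membrane protein. It had 15.9 and 14.1 CPM in clone 22, 28.3 and 25.2 CPM in clone 21, 24.6 and 22.8 CPM in clone 23 and 4.89 CPM in wild-type (log2 difference -0.77, SE 0.10, adjusted p = 8.03e-05). GPX3, a secreted glutathione peroxidase, was 1.71-fold lower in clone 22, a call lost without the untreated library of clone 23 (adjusted p = 0.0855). BGN, the proteoglycan biglycan, and NOSTRIN, which binds the endothelial nitric oxide synthase, were 1.70-fold and 2.13-fold lower in clone 22. Both lost their calls without the fibronectin library of clone 23 (adjusted p = 0.101 and 0.0557) or the untreated one (0.176 and 0.0711).

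The gene that set clone 23 apart most was SULF1. It encodes an enzyme that removes sulfate from heparan sulfate at the cell surface, and had 2.10 CPM on fibronectin and 1.44 CPM untreated in clone 23. Clone 21 had 71.6 and 66.0 CPM, clone 22 had 68.4 and 58.1 CPM, and the wild-type libraries had 55.7, 50.9 and 50.7 CPM. The difference was -5.19 on the log2 scale (SE 0.13, adjusted p = 3.46e-16), 36.6-fold. TEX15, a germ-cell gene, showed the reverse, with 3.79 and 4.16 CPM in clone 23 and at most 0.455 CPM in the other 4 libraries, against 7.15 CPM in wild-type. It was 1 of only 2 cancer-testis genes of 60 listed that passed the filter.

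The genes highest in clone 23 included regulators of signalling. DKK1, a secreted inhibitor of Wnt signalling, had 46.3 and 42.2 CPM in clone 23, 17.8 to 22.3 CPM in the other clones and 81.9 CPM in wild-type. NR5A2, a nuclear receptor, had 10.2 and 10.8 CPM in clone 23 and 3.38 to 5.54 CPM in the others, a call lost without the fibronectin library of clone 23 (adjusted p = 0.129). FST, an inhibitor of activin, was 2.12-fold higher in clone 23, GABBR2, a subunit of the GABA-B receptor, 2.40-fold and TNFRSF8, the receptor CD30, 2.14-fold. Wild-type averaged 10.9 CPM of FST and 13.6 CPM of GABBR2, above the mean of every clone. Clone 23 was the nearest to it, at 8.20 and 9.01 CPM. GABBR2 and TNFRSF8 lost their calls without the fibronectin library of clone 23 (adjusted p = 0.0528 and 0.163) or the untreated one (0.0508 and 0.116), and FST without the fibronectin one (0.0852).

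A group of genes ran in order through the clones, from clone 21 over clone 22 to clone 23. DNASE1L3, a secreted DNase, had 137 and 115 CPM in clone 21, 71.6 and 57.6 CPM in clone 22 and 25.5 and 28.4 CPM in clone 23, against 0.344 CPM in wild-type. CD34, a sialomucin of endothelial and stem cells, had 484 and 418 CPM in clone 21, 385 and 306 CPM in clone 22 and 202 and 192 CPM in clone 23, against 5.92 CPM in wild-type. DNASE1L3 and CD34 thus differed by 4.64-fold and 2.28-fold between clones 21 and 23. The interferon-induced gene IFI27 had 149.5 and 92.1 CPM in clone 21, 77.2 and 64.9 CPM in clone 22 and 46.4 and 37.4 CPM in clone 23, against 10.99 CPM in wild-type. The cytokine IL18 had 18.2 and 14.0 CPM in clone 21, 8.77 and 8.23 CPM in clone 22 and 3.55 and 2.48 CPM in clone 23, and wild-type, at 16.4 CPM, lay near clone 21.

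The endothelial sialomucin EMCN and the integrin subunit ITGA4, part of a fibronectin receptor, followed the same order. EMCN had 17.1 and 21.6 CPM in clone 21, 8.81 and 11.4 CPM in clone 22 and 5.71 and 5.30 CPM in clone 23, all under the 32.0 CPM of wild-type. ITGA4 had 8.27 and 10.2 CPM in clone 21 and 2.21 to 4.15 CPM in the other clones, against 53.2 CPM in wild-type. Between clones 22 and 23 the adjusted p was 0.00316 for EMCN and 0.465 for ITGA4. ESX1, an X-linked homeobox gene, was 3.30-fold higher in clone 21 than in clone 23. Wild-type, at 16.2 CPM of ESX1, lay near the 16.8 CPM mean of clone 21. The opposite order, lowest in clone 21 and highest in clone 23, held for TPD52, which had 6.58 and 6.24 CPM in clone 21, 12.2 and 13.0 CPM in clone 22 and 29.2 and 27.6 CPM in clone 23, around a wild-type mean of 20.3 CPM. TOX, a nuclear HMG-box protein, and PGM1, an enzyme of glycogen metabolism, ran the same way. Between clones 21 and 23 they differed by 2.62-fold and 2.04-fold.

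Of 10 genes followed in every clone whatever their result, 2 were called by the clone test with all 6 libraries, CST1 and LYVE1. CST1, an inhibitor of cysteine proteases, was 2.77-fold higher in clone 21, with 2.95 and 4.06 CPM in clone 21, 0.703 and 1.38 CPM in clone 22 and 1.04 and 2.18 CPM in clone 23, against 361 CPM in wild-type (adjusted p of the clone test 0.000144). It lost its call without the fibronectin library of clone 23 (adjusted p = 0.0509). KLF2 had 59.3 to 78.6 CPM on fibronectin and 61.2 to 71.5 CPM untreated, against 6.99 CPM in wild-type (adjusted p of the clone test 0.414). KLF4 had 26.0 to 30.7 CPM over the 6 knockout libraries against 3.32 CPM in wild-type (0.644). FN1, which encodes fibronectin, had 1066, 1323 and 1298 CPM on fibronectin and 1428, 1417 and 1374 CPM untreated in clones 21, 22 and 23, against 14655 CPM in wild-type (0.717). The adjusted p was 0.868 for the anticoagulant receptor THBD, 0.266 for the adhesion molecule SELP and 0.645 for the matrix protein TGFBI. Without the untreated library of clone 21 the clone test called KLF2, FN1 and SELP (adjusted p = 0.00136, 0.0121 and 0.00472), and without the fibronectin library of clone 21 it gave 0.00265, 0.903 and 0.00474. A missed threshold does not show that the clones are alike, and the standard error of the clone differences of these 6 genes was 0.074 to 0.092 on the log2 scale. LYVE1, a hyaluronan receptor of lymphatic endothelium, was lower in clone 22, with 267 and 251 CPM against 309.7 to 331 CPM in the other clones (0.0132), a call lost without either library of clone 22 (adjusted p = 0.152 and 0.671) or of clone 23 (0.204 and 0.256). MST4, a GCKIII kinase, had 9 counts in all over the 6 knockout libraries and was not tested, against 16.3 CPM in wild-type.

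Among 22 tested members of the CCM complex and its partners, 1 was called (4.55%, beside 3.5% of all tested genes), UNC13D, a priming factor of secretory granules. It had 10.4 and 12.5 CPM in clone 22, 7.34 and 4.33 CPM in clone 21 and 3.91 and 2.11 CPM in clone 23, and lost its call without the fibronectin or the untreated library of clone 23 (adjusted p = 0.0503 and 0.117). None of 16 tested GCKIII kinases and STRIPAK members was called by edgeR, DESeq2 or limma, and 0 had an unadjusted p under 0.05. Without either library of clone 21, 1 of them was called. Of 16 tested genes of the KLF2 and KLF4 axis 3 were called (18.8%): the matrix proteases ADAMTS1 and ADAMTS9, lower in clone 21, and the quinone reductase NQO1, higher in clone 23. ADAMTS1 had 37.4 and 43.4 CPM in clone 21, 52.9 and 59.6 CPM in clone 22 and 62.8 and 70.5 CPM in clone 23, against 25.9 CPM in wild-type. Without either library of clone 23 the test called 0 genes of this list, and ADAMTS1 had an adjusted p of 0.0733 and 0.0661.

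The called shares of the matrix lists stand beside 3.5% of all tested genes, and no test of the lists was made. All gene lists were chosen with earlier results of these data known, so their shares are a description only. Of 17 tested collagens 8 were called (47.1%), 5 of them led by a lower level in clone 21, and the median largest difference between clones was 0.445 over the list against 0.167 over all tested genes. COL5A2, a fibrillar collagen, had 182 and 182 CPM in clone 23 against 222 to 291 CPM in the other clones. COL17A1, a transmembrane collagen of hemidesmosomes, had 9.21 and 9.12 CPM in clone 21 against 12.04 to 17.2 CPM. Of 26 matrix proteases and inhibitors 8 were called (30.8%), of 27 matricellular and elastic fibre genes 5 (18.5%) and of 16 integrins 3 (18.8%). HSPG2, the basement membrane proteoglycan perlecan, was 1.37-fold lower in clone 21, and ITGA5 and ITGB4, receptors for fibronectin and laminin, were 1.24-fold and 1.38-fold lower there. Without the fibronectin or the untreated library of clone 23 the test called 0 and 0 collagens, 0 and 1 proteases and inhibitors, 1 and 1 matricellular genes and 1 and 1 integrins. COL5A2, COL17A1, HSPG2, ITGA5 and ITGB4 all lost their calls without either library of clone 23, and ITGA5 also without either of clone 22 (adjusted p = 0.148 and 0.123). Without the fibronectin library of clone 23 the adjusted p was 0.0557 for COL5A2, 0.18 for COL17A1, 0.0752 for HSPG2, 0.183 for ITGA5 and 0.375 for ITGB4.

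**Figure D4:**
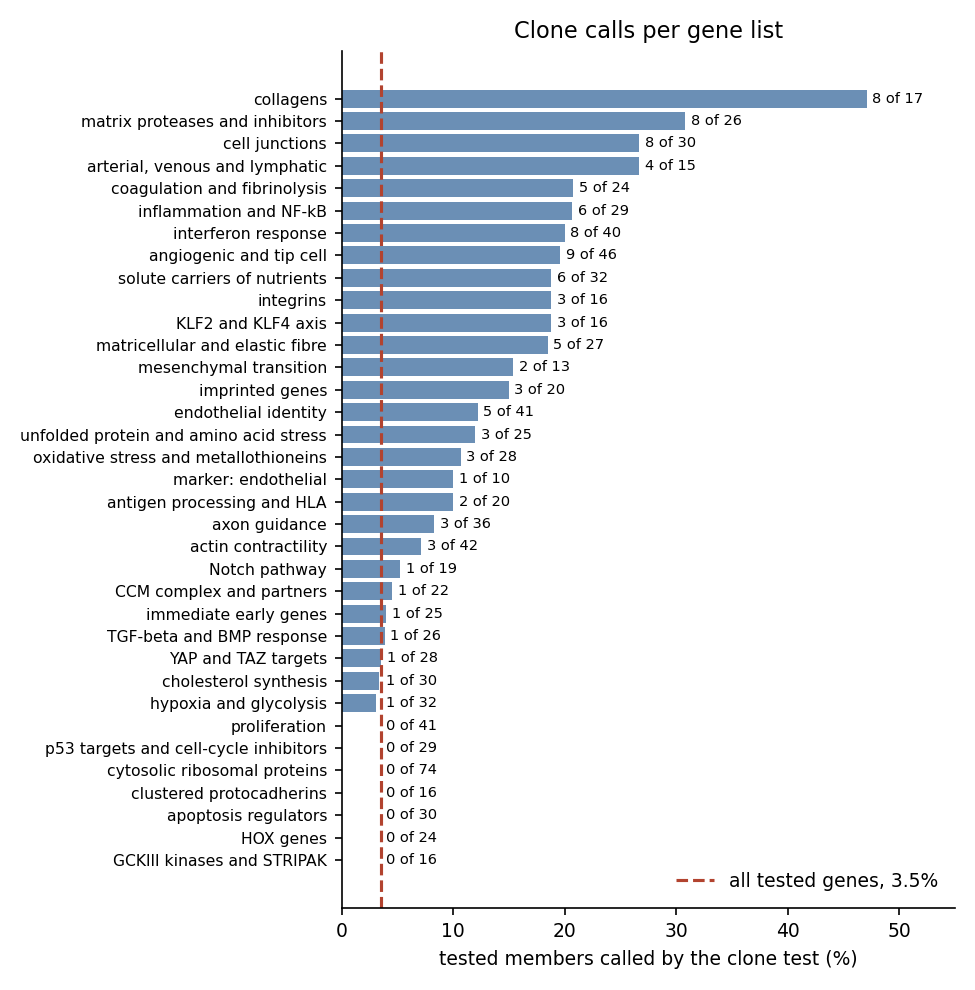
Share of tested members called by the clone test in each gene list with at least 10 tested members, in percent, with the number called beside each bar. The dashed line is the 3.5% called over all tested genes. The lists were chosen with earlier results of these data known, so the shares are a description only. Collagens (8 of 17) are at the top and 7 lists at the bottom have no called member.

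Endothelial lists differed in part. Of 41 tested endothelial identity genes 5 were called (12.2%), led by CD34 and EMCN, and 2 kept their call with any library left out. Of 15 arterial, venous and lymphatic genes 4 were called (26.7%). They include FLT4, the receptor VEGFR3, which had 1.61 and 1.53 CPM in clone 22 and at most 0.383 CPM in the other clones, and VEGFC, its ligand, 1.28-fold higher in clone 23. VEGFC lost its call without either library of clone 23 (adjusted p = 0.76 and 0.471), and FLT4 without the untreated one (0.0724). Of 30 junction genes 8 were called (26.7%), 3 led by a higher and 3 by a lower level in clone 21. CDH13, an anchored cadherin, was 1.38-fold higher in clone 21, while CDH2, N-cadherin, was 1.34-fold lower. Without either library of clone 23 the test called 0 junction genes, and the adjusted p without the fibronectin one was 0.129 for CDH13 and 0.308 for CDH2. CDH2 also lost its call without either library of clone 22 (0.133 and 0.068).

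Interferon and inflammation genes differed among the clones in both directions. Of 40 interferon response genes 8 were called (20%), 4 led by a higher level in clone 21, and of 29 inflammation genes 6 were called (20.7%). CCL2, a chemokine for monocytes, had 30.9 and 26.9 CPM in clone 21, 18.5 and 18.6 CPM in clone 22 and 14.9 and 15.3 CPM in clone 23. Wild-type averaged 24.65 CPM. Clone 21 did not pass the test against wild-type (adjusted p = 0.213), and clones 22 and 23 were called below it. IL33, an alarmin cytokine, and IL1RL1, its receptor, differed in clone 23 in opposite directions, with IL33 2.07-fold lower and IL1RL1 1.505-fold higher. HLA-B and B2M, which form a class I molecule, were 1.37-fold and 1.23-fold higher in clone 21 (adjusted p of the clone test 0.00799 and 0.0216), and reads of HLA genes can be shared among near-identical loci. Without the fibronectin or the untreated library of clone 23, 1 and 1 interferon genes and 0 and 2 inflammation genes were called, and the adjusted p was 0.0957 and 0.0701 for HLA-B, 0.134 and 0.129 for B2M and 0.0509 and 0.0886 for IL33. B2M also lost its call without either library of clone 22 (0.538 and 0.19). CCL2 and IL1RL1 lost their calls without the fibronectin library alone (0.0565 and 0.177). Of 20 tested imprinted genes 3 were called (15%), TFPI2, MEST and DIRAS3, all highest in clone 21, and TFPI2 kept its call throughout. MEST and DIRAS3 lost theirs without the fibronectin library of clone 23 (adjusted p = 0.183 and 0.375) or the untreated one (0.185 and 0.367), and DIRAS3 also without the fibronectin library of clone 21 (0.0953).

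Several lists had no member called by the clone test with all 6 libraries. This held by edgeR, DESeq2 and limma for 41 proliferation genes, 29 p53 targets and cell-cycle inhibitors, 30 apoptosis regulators, 74 cytosolic ribosomal proteins, 24 HOX genes and 16 clustered protocadherins. Over all tested genes the clone test called 3.5%, so lists of these sizes would hold few called genes in any case. In clone 21 against the others edgeR called 1 of the p53 targets and cell-cycle inhibitors, higher in clone 21, beside 3.03% of all tested genes. At an unadjusted p under 0.05 of the clone test by edgeR these lists had 15, 5, 1, 6, 3 and 6 genes. The share of all tested genes at that threshold is not given here. The fits without a library of clone 21 that follow also called more genes over all tested genes, as given above. Without the untreated library of clone 21 the test called 17 proliferation genes, 9 p53 targets and cell-cycle inhibitors, 2 apoptosis regulators, 31 ribosomal proteins, 0 HOX genes and 3 clustered protocadherins. Without the fibronectin library of clone 21 it called 10, 4, 0, 8, 0 and 2.

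Among the markers of other cell types, the clone test called FAP and MAP2. Of the 7 fibroblast markers 6 were under 1 CPM in all 6 knockout libraries and LUM was at 0, so the list's sum, 33.3 and 44.9 CPM in clone 21, 6.5 and 12.5 CPM in clone 22 and 4.85 and 5.8 CPM in clone 23 (fibronectin, then untreated), was that of FAP. Smooth muscle and pericyte markers summed to 58 to 69.1 CPM on fibronectin and 38.1 to 46.9 CPM untreated. Epithelial markers summed to 541 to 636 and 491 to 523 CPM, most of it KRT18 and KRT7. Leukocyte markers summed to 32.3 to 34.8 and 27.5 to 28.6 CPM, most of it CD68. In wild-type the same lists summed to 171 to 192, 773 to 817 and 17.3 to 18 CPM. The neural markers summed to 31.2 to 39.1 CPM on fibronectin and 24.6 to 29.6 CPM untreated, most of it TUBB3. MAP2, a microtubule-associated protein of neurons, had 0.899 and 1.61 CPM in clone 21, 1.65 and 2.77 CPM in clone 22 and 3.79 and 2.92 CPM in clone 23 (adjusted p of the clone test 0.0169), a call lost without either library of clone 23 (0.509 and 0.0538). Under 1 CPM in all 6 knockout libraries were 5 of 9 smooth muscle and pericyte, 2 of 6 epithelial, 3 of 6 leukocyte and 4 of 6 neural markers, and KRT19 and RBFOX3 were at 0. These 4 sums were higher on fibronectin than untreated in all 3 clones, and their part in the clone differences was not tested.

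The fibronectin and untreated libraries lay further apart in clone 21 than in the other clones. On log2(CPM + 1), 9.65% of tested genes differed by more than 0.5 between the fibronectin and the untreated library in clone 21, against 0.751% in clone 22 and 1% in clone 23. The median absolute difference was 0.19, 0.118 and 0.0836. The counts of the 2 libraries of clone 21 also differed most, at 33.6 chi-square units per degree of freedom, against 9.63 in clone 22 and 6.94 in clone 23. With 1 library per clone and condition this difference in response has no test, and a difference between cultures or libraries of clone 21 cannot be told apart from a stronger response. Over all clones, fibronectin had 783 called genes (5.82%), 670 higher and 113 lower on fibronectin, of which 13 reached 2-fold. Without the fibronectin or the untreated library of clone 23 edgeR called 0 genes for fibronectin, with 2861 and 2855 at an unadjusted p under 0.05, and without the clone as a block it also called 0, with 2574. Among those 783 genes the median absolute difference was 0.602 in clone 21, 0.221 in clone 22 and 0.266 in clone 23. Of the 471 genes called for clone, 32 were also called for fibronectin (6.79%).

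**Figure D5:**
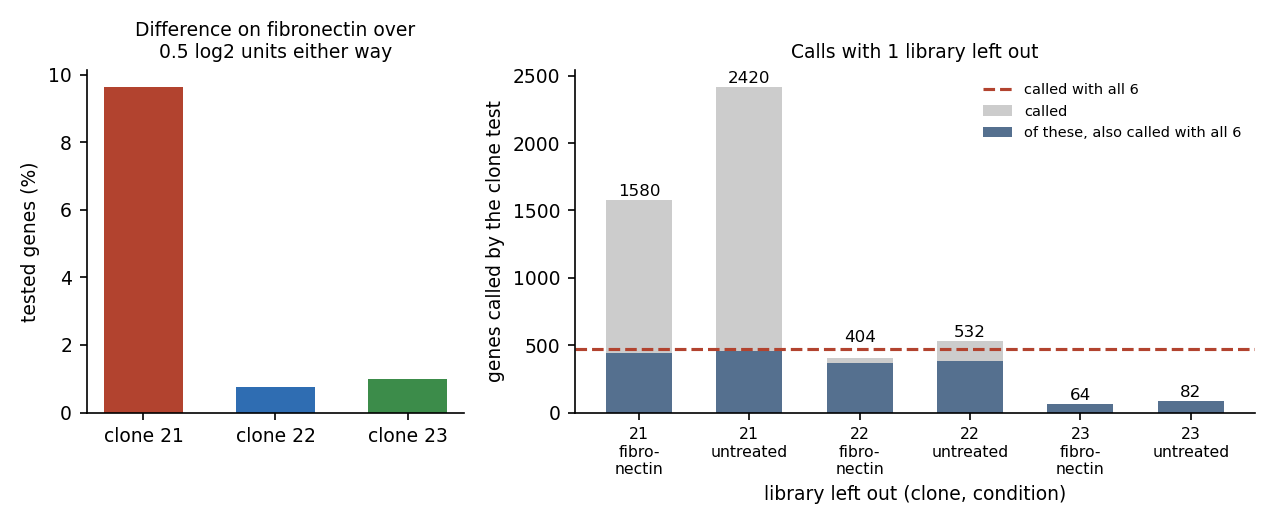
Left, percent of 13454 tested genes that differ by more than 0.5 on log2(CPM + 1) between the fibronectin and the untreated library of each clone, which is 9.65% in clone 21, 0.751% in clone 22 and 1% in clone 23. Right, genes called by the clone test with 1 library left out, from 64 to 2420, against 471 with all 6 (dashed line), and how many of those 471 were called again.

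Each clone differed from wild-type in far more genes than from the other clones. Clone 21 had 7023 called genes of 13986 tested (50.2%), clone 22 had 6277 (44.9%) and clone 23 had 6508 (46.5%), and the 3 comparisons share the same wild-type libraries. Without the untreated library of the clone itself, clone 22 had 3799 and clone 23 had 3272. Of the 471 genes that differed among clones, the wild-type mean lay above all 3 clone means in 167, below them in 187 and between them in 117, against 5476, 5610 and 2368 of all 13454 tested genes. Where clone 21 stood apart, wild-type was nearer to clone 21 in 74 genes and nearer to the other clones in 53. The same split was 20 and 23 for clone 22, and 29 and 27 for clone 23.

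Clones can also differ by gain or loss of chromosomes, so the medians of each chromosome were compared. The largest median of a chromosome shared in sign by both libraries was 0.00624 on the log2 scale in clone 21 (the lower of its 2 values, chromosome 6), 0.0155 in clone 22 (chromosome 12) and 0.0176 in clone 23 (chromosome 9). The median of chromosome 19 was 0.071 on fibronectin and -0.141 untreated in clone 21, and 0.013 on fibronectin and 0.108 untreated in clone 23. The share of called genes ran from 1.92% on chromosome 3 to 7.01% on chromosome 4. Of 12517 pairs of genes next to each other among the tested genes of a chromosome, 28 had both called. Of these, 11 had the same leading clone and direction. Over all tested genes 3.5% were called, and how many such pairs this share alone would give was not worked out. The count thus does not show that neighbours differ together. Chosen after their values were seen, the 11 pairs include GABBR1 and ZFP57, both lower in clone 21. They also include TFPI2, GNG11 and BET1, and TNFSF9 and CD70, all higher in clone 21.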

How the data were processed

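Stranded poly-A libraries were made with a TruSeq kit per the labels. The authors deposited raw counts per gene symbol and FPKM values. STAR (alignment), HTSeq (counting) and the builds hg19 and GRCh37 are named per the submitters' processing notes. Their versions, and whether counting used strand, are not given in the sources used here. Only the deposited counts entered the results. The deposited FPKM values were averaged per clone for reference and are not shown.

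Clone numbers were read from the sample titles, since the labels' clone field is the same for all samples. Counts were fitted with edgeR 4.0.16 in R 4.3.3 (quasi-likelihood F test, robust, TMM), with 1 term per clone and 1 for fibronectin. The filter was filterByExpr by clone, with a minimum count of 10 and total of 15. Comparisons with wild-type used 1 fit of all 9 libraries. P-values were adjusted by Benjamini-Hochberg over all tested genes, and a call is an adjusted p under 0.05. CPM uses TMM factors of the 9 libraries. Alternatives used DESeq2 1.42.0 and limma 3.58.1.

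The fibronectin and untreated libraries are paired by clone, per the titles, and every same-clone correlation of deviations is over 0.1 (0.350, 0.411 and 0.496). The members and the 42 gene lists were chosen with earlier results of these data known. Named genes were, per clone, the 10 highest and 10 lowest called genes with at least 5 CPM that did not overlap the other clones, the 10 smallest p-values, the 5 most abundant called genes with a 2-fold difference, up to 3 called genes a list, up to 10 called in opposite directions against wild-type, and 10 fixed genes. Genes without a standard symbol are not named, and a few named genes are not reported here. Chromosomes and neighbours came from RefSeq, which matched 12540 of 13454 tested symbols.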

Additional observations from a re-analysis of the deposited data

Results flagged for a closer look

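Of the genes called by the clone test, 25 had 2 clones called in opposite directions against wild-type. In 21 of them the highest clone had at least 5 CPM. The comparisons share the same wild-type libraries, so the difference was taken between the clones themselves. It was tested with edgeR's quasi-likelihood test, Benjamini-Hochberg adjusted over all genes, and is given here for 9 of the 10 named ones. All had already passed the clone test on the same libraries, and the named ones were picked for the largest differences. Their p-values thus add no separate support. Clone 21 over clone 23 differed by 5.27 on the log2 scale in SULF1 (adjusted p = 6.54e-16), where clone 21 was 0.287 above and clone 23 was at -4.98 relative to wild-type. The same difference was 1.27 in EFEMP1 (2.22e-09), with clone 21 at 0.945 and clone 23 at -0.331. In TPD52 and TOX it was -2.15 (6.98e-10) and -1.39 (1.14e-06), with clone 21 below wild-type and clone 23 above it.

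Clone 21 over clone 22 differed by -7.08 in ZFP57 (adjusted p = 3.45e-11), a fitted value at 3 and 1 counts in clone 21, with clone 21 below wild-type and clone 22 at 2 above it. In SERPINB2, an inhibitor of plasminogen activators, it was 1.13 (7.16e-07), with clone 21 above wild-type and clone 22 below it. Clone 22 over clone 23 differed by 2.83 in PNPLA4 (4.55e-08), 1.83 in GFPT2 (4.55e-08) and 1.19 in ARRDC4, an arrestin-domain protein (8.14e-05). In all 3 clone 22 was above wild-type and clone 23 below it. ARRDC4 lost its clone call without either library of clone 23. The other genes of this section kept theirs whichever library was left out. Both libraries of each clone lay on their side of the wild-type mean in these 9 genes.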

How the results depend on the processing

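Scaling by DESeq2 size factors or by total counts alone, limma-voom in place of edgeR, a fit without robust dispersion, a filter by group and 1 fit of all 9 libraries kept every count of called genes within 1.5 times of the reported one. DESeq2 called fewer genes, with 264 among clones, 197, 81 and 137 for clones 21, 22 and 23 against the others, 157, 181 and 83 for the pairs 21 and 22, 21 and 23, and 22 and 23, and 309 for fibronectin. With no filter on low counts the test called 825 among clones, 351 and 407 for clones 22 and 23, 541 and 275 for the pairs 21 and 22, and 22 and 23, and 1661 for fibronectin. With at least 5 CPM in 2 libraries it called 276 among clones, 255, 95 and 158 for the clones and 189, 224 and 77 for the pairs. Without a fibronectin term it called 91, then 77, 42 and 60, then 38, 90 and 40.

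Without the clone as a replicate block, edgeR called 0 genes for fibronectin, with 2574 at an unadjusted p under 0.05. With 1 knockout library left out, the counts were 64 to 2420 among clones, 72 to 1870, 20 to 2129 and 17 to 1432 for clones 21, 22 and 23, 70 to 2290, 44 to 1256 and 7 to 892 for the pairs, and 0 to 876 for fibronectin. The 0 came without either library of clone 23, with 2861 (fibronectin) and 2855 (untreated) genes at an unadjusted p under 0.05. Such fits keep 1 residual degree of freedom and assume that the lone library of a clone varies like the rest. Against wild-type the counts were 5828 to 6850, 3799 to 6797 and 3272 to 7201 for clones 21, 22 and 23 with any 1 library left out.

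The median share of a gene's variation taken by clone was 36.5%, beside 40% of the degrees of freedom, which describes an average share and not a median. It was 36.48%, 36.51%, 33.6% and 35.7% with an offset of 0.1 or 5, genes of at least 10 CPM, or total counts. The same-clone correlation of clone 21 was 0.263 at 10 CPM or more. The largest shared chromosome median became -0.031, 0.0149 and 0.0109 in clone 21 with total counts, at 10 CPM or more, and without called genes of 2-fold or more, 0.0212 and 0.0184 in clone 22 and 0.034 and 0.0306 in clone 23 under the first 2 of these. The 110 tested named genes were followed in the clone that differed most, against the others. A call is here that of this contrast and not of the clone test. Direction and call were kept in 1153 comparisons with an alternative, and the call was lost in 157 and gained in 8. Most losses came without a library of clone 23. DESeq2 lost the call of DIRAS3, HLA-B and VEGFC, among others. Of these genes, only FN1 and THBD, neither called with all 6 libraries, reversed. FN1 in clone 21 ranged from -0.305 to 0.0462 with 1 library left out, positive only without the fibronectin library of clone 21 and called (adjusted p = 0.00569) without its untreated one. THBD in clone 22 ranged from -0.209 to 0.0542, positive only without the fibronectin library of clone 22. The causes of these shifts were not tested. Each clone had 1 library per condition.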
